A study of Mus musculus with 3 samples.

Results

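Ccl3, Ccl4, Ccl5 and Ccr1 are 4 of the 32285 genes in the count matrices of 3 mouse lung libraries, and they were found by their symbols. They comprise 3 inflammatory chemokines of the C-C family and a receptor of Ccl3 and Ccl5. They were followed from the cells that made the ligands to the cells that carried the receptors. The libraries hold single cells of lung from mice aged 3 months, 1 library for each treatment: Control, Model and PD00. According to the title of the series, PD00 is a peptidomimetic (a compound shaped like a peptide) and the model uses ovalbumin (OVA), an egg protein that sensitised mice react to with allergic airway inflammation. How many animals a library pools, and whether PD00 was given together with ovalbumin, are not in the labels, which call the tissue healthy for every library. With 1 library per group there was no replicate check, so no test was run, and each 95% interval, given in parentheses, covers counting error only.

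Chemokines are small secreted proteins that attach to the matrix and attract leukocytes through G protein-coupled receptors. Ccl3 (MIP-1 alpha) and Ccl4 (MIP-1 beta) are made quickly by activated macrophages, mast cells, basophils and NK cells, whereas Ccl5 (RANTES) is made mainly by cytotoxic lymphocytes. Ccr1 binds Ccl3 and Ccl5 and is carried by neutrophils, monocytes and macrophages. In allergic lung inflammation, Ccr3, another receptor of Ccl5, marks eosinophils.

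In GRCm38 the ligand genes lie in the chemokine cluster of chromosome 11. Ccl3 (ENSMUSG00000000982) is at chr11:83647844-83649355, minus strand, and Ccl4 (ENSMUSG00000018930) is at chr11:83662584-83664683, plus strand, with 13228 bases between them. Ccl5 (ENSMUSG00000035042) is at chr11:83525778-83530518, minus strand, 117325 bases from Ccl3. Ccr1 (ENSMUSG00000025804) is at chr9:123962124-123968692, minus strand, on the chromosome that also holds Ccr3. The 250 bases before the RefSeq start are shown for Ccl3, the ligand with the lowest ratio of Model to Control over all cells, and for Ccr1, the member whose level over all cells varied least.
Ccl3 (GRCm38.p6, chr11:83649379-83649628, minus strand, 5′ to 3′): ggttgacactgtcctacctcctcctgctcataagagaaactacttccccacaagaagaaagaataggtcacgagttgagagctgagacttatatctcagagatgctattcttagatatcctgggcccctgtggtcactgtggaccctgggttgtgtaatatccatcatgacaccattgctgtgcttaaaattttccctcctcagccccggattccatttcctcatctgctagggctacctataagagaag
Ccr1 (GRCm38.p6, chr9:123968693-123968942, minus strand, 5′ to 3′): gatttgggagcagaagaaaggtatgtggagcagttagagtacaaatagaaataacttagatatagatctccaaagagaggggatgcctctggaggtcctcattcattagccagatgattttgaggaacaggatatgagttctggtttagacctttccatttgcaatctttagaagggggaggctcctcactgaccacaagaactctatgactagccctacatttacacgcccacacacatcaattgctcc
Among the 4 members, RefSeq entries were found for these 2 and not for Ccl4 and Ccl5. Neither window held AP-1 (TGANTCA), NF-kB (GGG and TTCC with any 3 bases between), C/EBP (TTGCNNAA), TATA box (TATAAA) or ISRE (GAAA and GAAA with any 2 bases between) letters on either strand, so no base is in capitals. These motifs occurred in 6.75%, 4.65%, 9.56%, 12.4% and 2.98% of all 32851 RefSeq windows of that length. A missing match says only that these letters are not in this window.

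Depth was counted in unique molecular identifiers (UMIs), tags that make each captured molecule count once. The totals were 83281019, 81816397 and 80288883 UMIs for Control, Model and PD00, the order of all values that follow. Kept cells numbered 9789, 11537 and 9647, with median depths of 5479, 4043 and 4604 UMIs, and 31 to 43 barcodes were shared by each pair of libraries. Cells were named by counting detected markers, none of them a chemokine ligand or receptor of the pathway described here. A gated class is therefore a range of marker counts and not a cluster. Alveolar macrophages had a median of 6, 5 and 5 of their 8 markers, and of 6, 6 and 6 of the 9 general macrophage markers. Alveolar macrophages made up 30.8%, 4.97% and 11.5% of kept cells, and 3.78%, 20.4% and 12.4% of them sat at the minimum of 3 markers. Basophils or mast cells were few, at 27, 21 and 10 cells, and eosinophils were nearly absent from Control, at 6, 340 and 316 cells. Because free RNA in droplets gives UMIs to cells that do not express a gene, fibroblasts and epithelial cells served as the reference for background.

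Over all kept cells, the ligands were lower in Model and PD00 than in Control, and Ccr1 was nearly level. Ccl3 stood at 393, 72.0 and 59.1 CPM (UMIs of the gene per 1000000 UMIs of the summed cells). Control was far above the other libraries, and Model was 5.45-fold lower (5.30 to 5.61) than Control. When each cell was thinned to 500 UMIs, so that every cell weighed the same, Ccl3 was 2.27-fold lower. Ccl4 stood at 286, 114 and 78.6 CPM, 2.51-fold lower (2.45 to 2.57) in Model. Ccl5 stood at 555, 382 and 112 CPM, 1.45-fold lower (1.43 to 1.48) in Model, or 2.37-fold lower after thinning. Ccr1 stood at 151, 146 and 139 CPM, with a ratio of Model to Control of 0.967 (0.943 to 0.992), and scaling by the median of ratios put that ratio at 1.06. Thus 2 of the 4 members, Ccl3 and Ccl4, were at least 1.5-fold lower in Model, where 17.7% of all measured genes were that much lower and 12.7% that much higher.

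Between PD00 and Model, Ccl5 was the member that differed most. It was 3.40-fold lower (3.32 to 3.48) in PD00, and it alone among the 4 members was at least 1.5-fold lower, as 7.43% of measured genes were. The ratio of PD00 to Model was 0.820 (0.789 to 0.852) for Ccl3, 0.691 (0.669 to 0.713) for Ccl4 and 0.953 (0.928 to 0.978) for Ccr1, and 3.54% of genes were at least 1.5-fold higher. With equal weight per cell type, a mean of CPM led by the types of highest level, Ccl4 had a ratio of 1.11. Against Control, PD00 was 6.65-fold lower (6.45 to 6.86) for Ccl3, 3.63-fold lower (3.53 to 3.74) for Ccl4 and 4.94-fold lower (4.83 to 5.05) for Ccl5. These comparisons share libraries, so their values are not independent of each other.

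**Figure D1:**
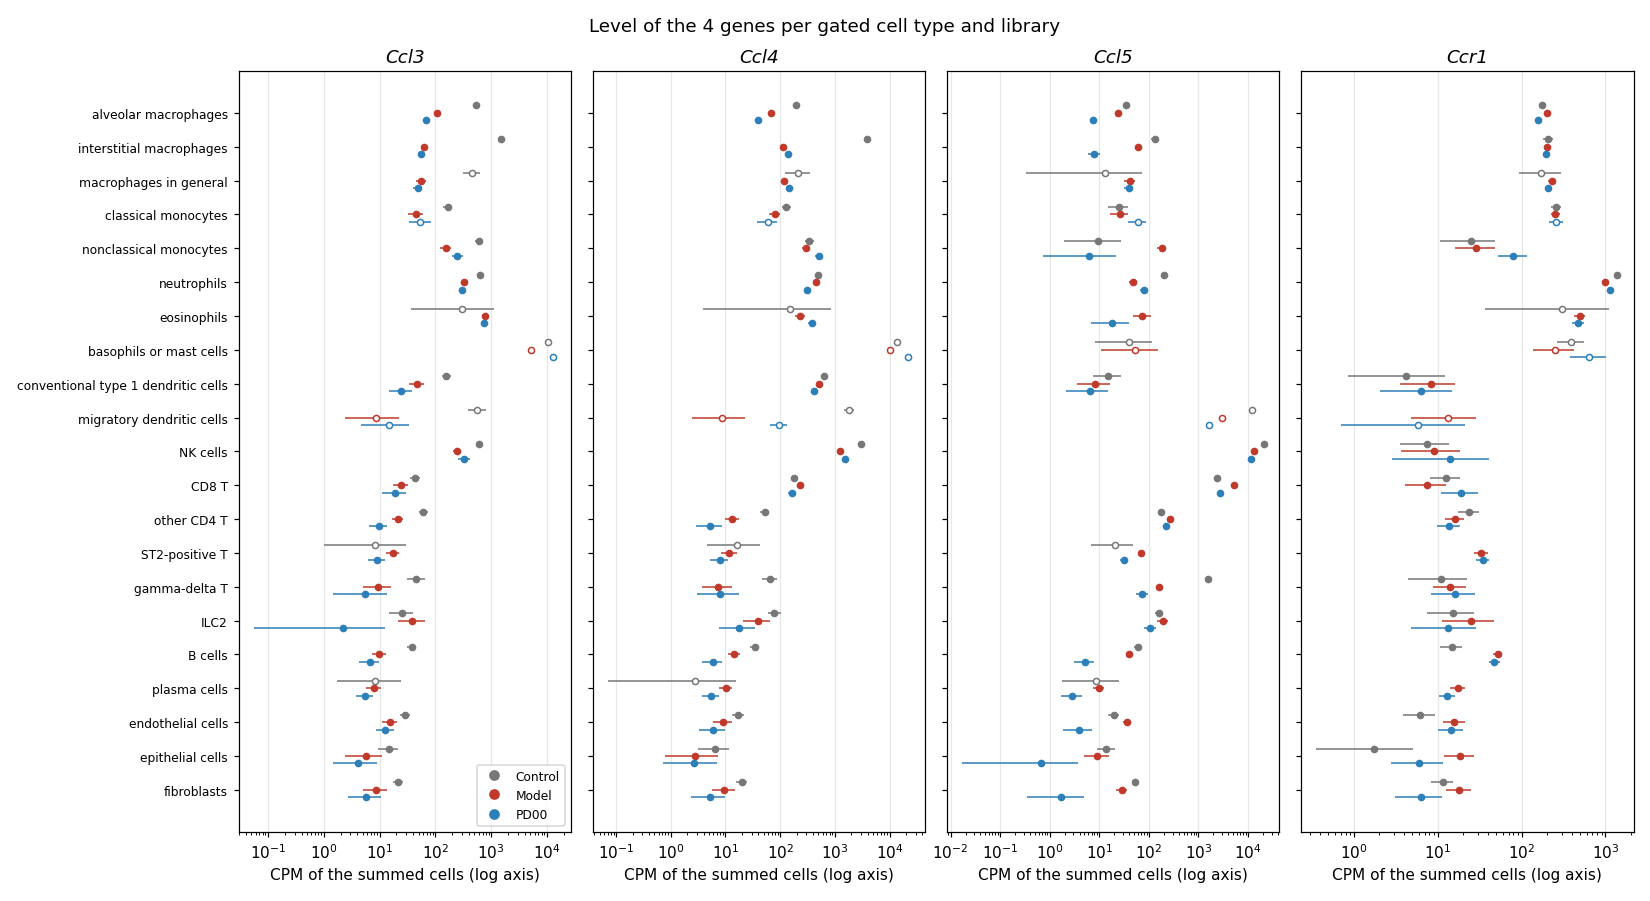
Level of Ccl3, Ccl4, Ccl5 and Ccr1 in CPM (log axis) per gated cell type, with exact Poisson 95% intervals; grey is Control, red Model and blue PD00, open points are sums of under 50 cells, and sums with no UMI are not drawn. Basophils or mast cells stand highest for Ccl3 and Ccl4, NK cells for Ccl5 and neutrophils for Ccr1.

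Alveolar macrophages, the resident phagocytes of the airspace, held 71.0%, 17.5% and 27.9% of all Ccl3 UMIs. Their level was 528, 106 and 67.1 CPM, and 81.0%, 44.2% and 38.8% of them had a Ccl3 UMI, against 12.5%, 7.04% and 4.92% of fibroblasts as the background. Median depths were 14703, 16504 and 17127 UMIs in the macrophages and 7928, 8510 and 8080 UMIs in the fibroblasts. Control stood apart from the other libraries, and Model was 4.98-fold lower (4.68 to 5.30). PD00 was 1.58-fold lower (1.46 to 1.72) than Model, but thinning each cell to 500 UMIs brought that ratio to 0.921. Positive alveolar macrophages held on average 9.47, 4.05 and 3.06 Ccl3 UMIs, so both the share of positive cells and the UMIs per positive cell were highest in Control. Ccl3 UMIs were spread over many cells in Control, where no alveolar macrophage held more than 0.692% of the class's UMIs.

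Interstitial macrophages, the C1q-positive phagocytes of the lung tissue, had the lowest ratios of Model to Control for Ccl3 and Ccl4 among the measured cell types. Ccl3 stood at 1513, 62.5 and 56.0 CPM in them, 24.2-fold lower (22.1 to 26.5) in Model, or 12.7-fold lower when cells were thinned to 500 UMIs. Ccl4 stood at 3875, 115 and 139.8 CPM, 33.8-fold lower (31.7 to 36.1) in Model. PD00 was close to Model for Ccl3, at a ratio of 0.895 (0.788 to 1.02), and above it for Ccl4, at 1.22 (1.12 to 1.33). Control interstitial macrophages carried both transcripts in the same cells, since 67.7%, 11.7% and 10.9% of them had UMIs of both genes. Their number moved the other way, at 192, 887 and 641 cells, and their median depths were 5392, 10000 and 9376 UMIs. With at least 6 of the 8 interstitial markers required, Ccl3 was 24.1-fold and Ccl4 31.5-fold lower in Model.

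**Figure D2:**
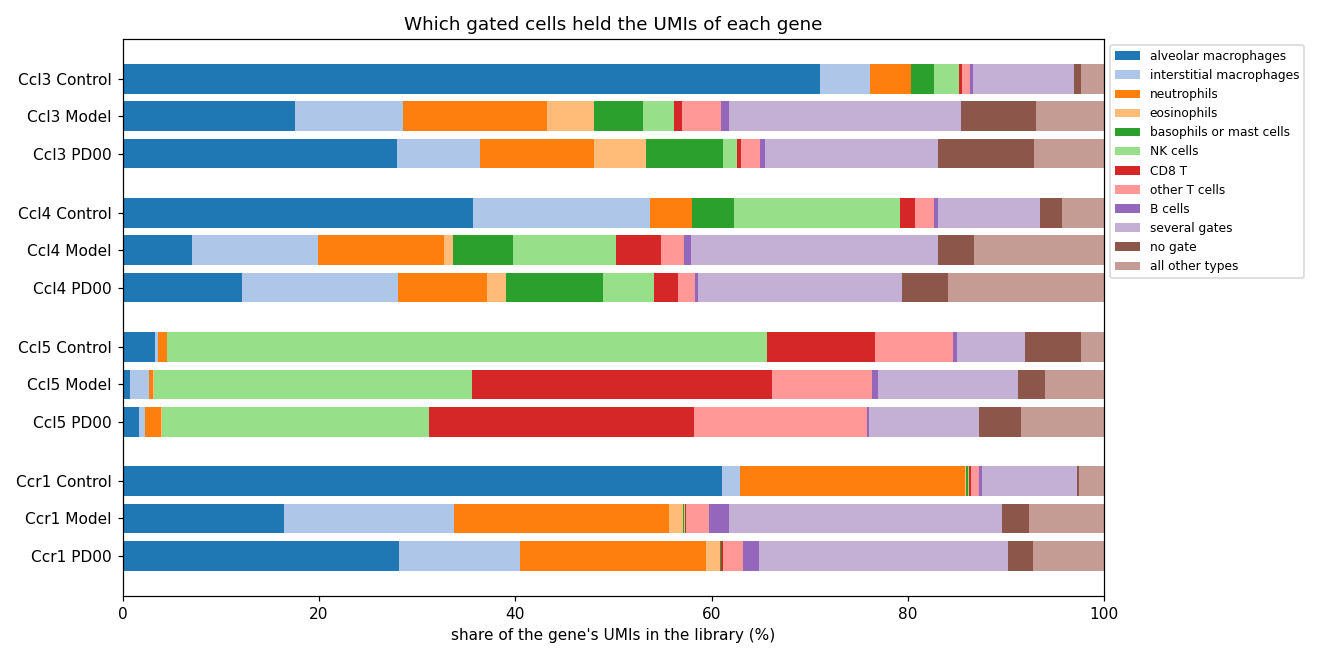
Share of each gene's UMIs (%) held by each gated cell class, 1 bar per gene and library; the bars of a gene sum to 100 per library. The alveolar macrophage share of Ccl3 is 71.0% in Control and 17.5% in Model, and the NK cell share of Ccl5 is 61.1% and 32.4%.

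Basophils or mast cells, granulocytes armed through the IgE receptor, had the highest levels of both MIP-1 genes in every library. Ccl3 stood at 10275, 5257 and 12998 CPM and Ccl4 at 13407, 10157 and 21923 CPM, with both genes detected together in 92.6%, 57.1% and 90.0% of these cells. They were at most 0.276% of kept cells, and yet held 2.41%, 5.04% and 7.80% of Ccl3 UMIs and 4.33%, 6.17% and 9.89% of Ccl4 UMIs. With fewer than 50 cells in each library, and up to 27.0% of the Ccl4 UMIs in 1 cell, no ratio between libraries is given for them.

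Granulocytes and monocytes were further Ccl3 sources. Neutrophils stood at 642, 327 and 296 CPM of Ccl3, 1.96-fold lower (1.80 to 2.14) in Model, and held 4.12%, 14.7% and 11.7% of its UMIs. Their Ccl4 stood at 483, 452 and 304 CPM, with Model at 0.936 (0.860 to 1.02) of Control. Eosinophils, counted in Model and PD00, stood at 788 and 749.9 CPM of Ccl3 and at 230.4 and 381 CPM of Ccl4. They had medians of only 954 and 954 UMIs per cell. The Ccl3 level in eosinophils of PD00 was 0.952 (0.799 to 1.13) of Model, but 0.622 where 3 and not 2 eosinophil markers were required. Nonclassical monocytes, the patrolling cells of the vessel wall, stood at 593, 153 and 247 CPM of Ccl3 and 343, 294 and 503 CPM of Ccl4.

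Of 23650, 9235 and 6260 Ccl4 UMIs, alveolar macrophages held 8435, 657 and 764, and interstitial macrophages 4263, 1181 and 991. Alveolar macrophages stood at 193, 68.0 and 39.0 CPM, 2.83-fold lower (2.62 to 3.07) in Model. Cells that passed several gates held 2455, 2323 and 1296 Ccl4 UMIs. Ccl4 had lymphoid and dendritic sources as well. NK cells stood at 2984, 1245 and 1513 CPM, 2.40-fold lower (2.23 to 2.57) in Model, and held 16.9%, 10.4% and 5.18% of Ccl4 UMIs. Their Ccl3 stood at 603, 242 and 327 CPM, 2.49-fold lower (2.12 to 2.94) in Model, and PD00 was 1.22-fold higher (1.07 to 1.38) than Model for Ccl4. Conventional type 1 dendritic cells, which cross-present antigen to CD8 T cells, stood at 639, 505 and 412 CPM of Ccl4 but at 157, 46.4 and 24.4 CPM of Ccl3. In these dendritic cells, Model was 1.26-fold lower (1.11 to 1.44) for Ccl4 (or at 1.10 of Control with cells of several gates assigned) and 3.38-fold lower (2.37 to 4.89) for Ccl3. CD8 T cells stood at 176, 232 and 167 CPM of Ccl4, where Model was 1.32-fold higher (1.14 to 1.52), while their Ccl3 was 1.83-fold lower (1.26 to 2.69). That Ccl3 stood at only 43.6, 23.8 and 18.9 CPM. Endothelial cells stood not far below, at 28.9, 15.1 and 12.6 CPM, and were 1.92-fold lower (1.34 to 2.79) in Model.

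A ratio was formed where each of the libraries held 50 or more cells of the type and the gene had 50 or more UMIs over both. Ccl3 was at least 1.5-fold lower in Model in 11 of 11 such types, with ratios from 0.0413 to 0.522, and Ccl4 in 9 of 12, from 0.0296 to 0.936. Neutrophils, nonclassical monocytes and type 1 dendritic cells were the types in which Ccl4 stayed above that limit. For comparison, the share of all measured genes lower by that much was 26.6% in alveolar macrophages, 18.4% in interstitial macrophages, 6.36% in classical and 9.34% in nonclassical monocytes, 7.2% in neutrophils and 11% in type 1 dendritic cells. In lymphoid types it was 8.95% in T cells, 12.7% in NK cells, 18.7% in group 2 innate lymphoid cells (ILC2) and 8.66% in B cells, and in structural types 9.92% in endothelial cells and 15.1% in fibroblasts. The counts include types at background. Ccl3 was 21.6, 8.55 and 5.69 CPM in fibroblasts and 28.9, 15.1 and 12.6 CPM in endothelial cells, lower in Model as the total of the library was.

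Between PD00 and Model, Ccl3 and Ccl4 differed in direction by cell type. Ccl3 was at least 1.5-fold lower in PD00 in alveolar macrophages (where 4.09% of all genes were), T cells (3%) and type 1 dendritic cells (3.45%), 3 of 12 measured types. The alveolar macrophage call was lost on thinning, at the ratio of 0.921 given before. Ccl3 was that much higher in nonclassical monocytes, at 1.62 (1.17 to 2.23), where 8.84% of genes were. PD00 held only 62 of these monocytes, and a single cell held a large part of their Ccl3 and Ccl4 UMIs, as given further below. T cells stood at 19.8 and 9.63 CPM of Ccl3 in Model and PD00, near endothelial cells at 15.1 and 12.6 CPM. Ccl4 was lower in 4 of 11 types, namely alveolar macrophages, T cells, B cells (background 2.74%) and plasma cells (background 4.41%). In B cells and plasma cells the Ccl4 levels overlapped those of fibroblasts, the reference for free RNA. Plasma cells stood at 10.1 and 5.35 CPM, B cells at 14.3 and 5.85 CPM and fibroblasts at 9.56 and 5.13 CPM in Model and PD00. Ccl4 was higher in nonclassical monocytes, at 1.71 (1.36 to 2.15), and in eosinophils, at 1.65 (1.24 to 2.21) (background 4.71%). In eosinophils, of which 69.4% and 71.8% sat at the minimum of 2 markers, the Ccl4 ratio was 1.23 with 3 markers required and 1.33 in cells of at least 500 genes, both under 1.5. In neutrophils Ccl4 came close to the limit, at 0.673 (0.608 to 0.745), where 4.47% of genes passed it. In T cells the Ccl4 ratio was 0.504, or 0.779 after thinning to 500 UMIs.

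The lower end of the MIP-1 range was lymphoid and structural. Ccl3 stood at 37.7, 9.79 and 6.61 CPM in B cells, 61.1, 21.2 and 9.58 CPM in CD4 T cells and 14.5, 5.66 and 4.05 CPM in epithelial cells. Ccl4 stood at 34.1, 14.3 and 5.85 CPM in B cells, 52.6, 13.3 and 5.13 CPM in CD4 T cells and 6.38, 2.83 and 2.70 CPM in epithelial cells. In Model and PD00 the B cells and fibroblasts overlapped in their intervals for both genes, so neither level of B cells stood clear of background there. Between these and the leading sources lay the classical monocytes, at 166, 44.5 and 53.9 CPM of Ccl3 and 130.2, 79.0 and 59.0 CPM of Ccl4. Plasmacytoid dendritic cells, of which Model and PD00 held 14 and 9, stood at 434 and 371 CPM of Ccl4 but had 1 Ccl3 UMI in each library. Among types with at least 50 cells, the order of Ccl3 in Control began with interstitial macrophages, ahead of neutrophils, NK cells and nonclassical monocytes, whose intervals overlapped, and alveolar macrophages. In Model it began with eosinophils, ahead of neutrophils, NK cells, nonclassical monocytes and alveolar macrophages.

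The mix of cell types and the level in each type entered these totals differently. The mix was each class's share of a library's UMIs, so it held depth as well as cell numbers. The level was the CPM of the class. With Control's mix of cell types and Model's level in each type, Ccl3 would have been 4.36-fold lower, close to the measured 5.45-fold. With Model's mix and Control's levels, the ratio would have been 1.06. For Ccl4 the levels alone gave 2.66-fold lower, and the mix alone a ratio of 2.43. Interstitial macrophages, which had the second highest Ccl4 level of Control, were more numerous in Model.

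**Figure D3:**
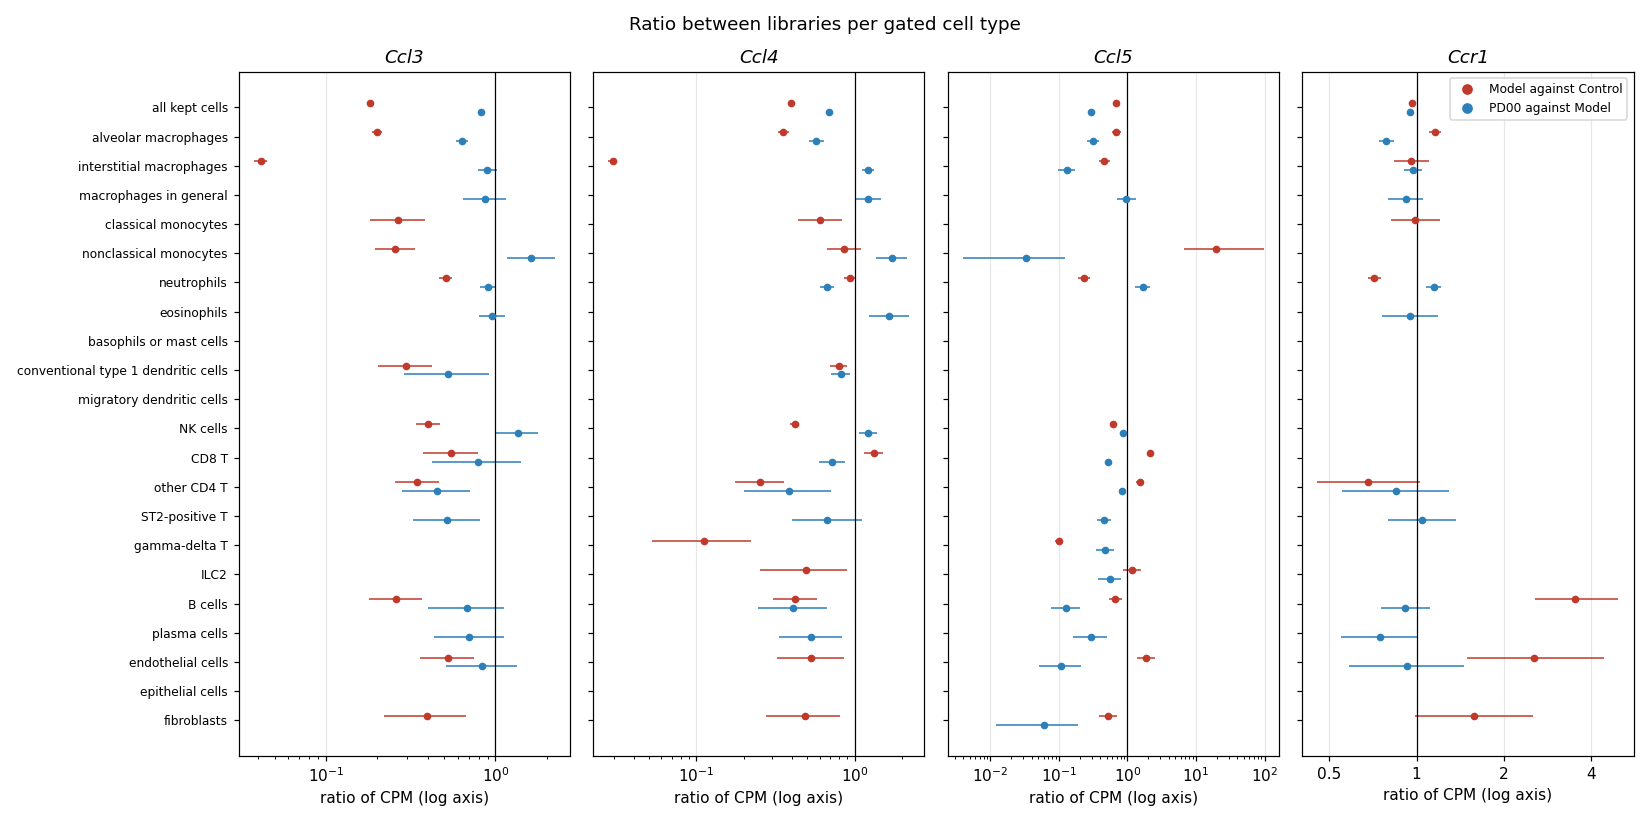
Ratio of CPM between libraries per gated cell type (log axis) with exact conditional-binomial 95% intervals, red for Model over Control and blue for PD00 over Model; the vertical line is a ratio of 1, and types under 50 cells or 50 UMIs have no point. Interstitial macrophages lie farthest left for Ccl3 and Ccl4 in Model over Control, at 0.0413 and 0.0296.

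MIP-1 genes belong to the early response to NF-kB, the transcription factor of inflammatory activation, so other genes of that response were examined beside them. Of 12 such genes, 10 were at least 1.5-fold lower in Model in alveolar macrophages (background 26.6% of all genes), with a median log2 ratio of -1.20 against -0.23 for all genes. In interstitial macrophages 10 of 12 were that much lower (background 18.4%), with a median of -1.11 against 0.03. Cxcl2, a neutrophil chemoattractant, stood at 12890.3, 2910.2 and 3862 CPM in alveolar and 19257, 2491 and 3466 CPM in interstitial macrophages. Il1a, an alarm cytokine, stood at 1065, 153 and 241 CPM in alveolar macrophages, and Nfkbia, the feedback inhibitor of NF-kB, at 1457, 893 and 1048 CPM. In alveolar macrophages of PD00, 3 of these genes were at least 1.5-fold higher than in Model (background 3.61%) and 0 lower (background 4.09%). At so small a share a count of 0 says little. Ccl3 and Ccl4 there were lower, at ratios of 0.632 and 0.573, but thinning brought the Ccl3 ratio to 0.921.

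Immediate-early genes, which cell handling can also induce, differed between the macrophage classes. In interstitial macrophages 12 of 14 were at least 1.5-fold lower in Model (background 18.4%), with a median log2 ratio of -1.73, and Atf3, a stress-induced repressor, stood at 1431, 331 and 379 CPM. In alveolar macrophages 6 of 14 were lower and 2 higher (background 26.6% lower and 12.9% higher), with a median of -0.25. In neutrophils 3 of 13 were lower and 1 higher, against 7.2% and 20.2% of all genes. The part of cell handling in the Ccl3 and Ccl4 levels was not tested.

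Ccl5 came from NK cells and CD8 T cells. NK cells stood at 20998, 13010 and 11374 CPM, and 100%, 99.0% and 100% of them had a UMI, against 22.9%, 13.8% and 1.35% of epithelial cells, whose median depths were 12975, 9430 and 14637 UMIs against 2758, 3294 and 3183 in NK cells. Nearly every NK cell thus carried Ccl5 in each library, and Model was 1.61-fold lower (1.58 to 1.65) in level. PD00 NK cells were 1.14-fold lower (1.09 to 1.20) than Model. NK cells held 61.1%, 32.4% and 27.2% of Ccl5 UMIs, and they made up 4.44%, 1.78% and 0.612% of kept cells, 435, 205 and 59 in number.

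CD8 T cells, the cytotoxic T lymphocytes, moved the other way between Control and Model. Their Ccl5 stood at 2417, 5121 and 2688 CPM, highest in Model, which was 2.12-fold higher (2.05 to 2.19) than Control, or 1.49-fold higher with each cell thinned to 500 UMIs. PD00 was 1.91-fold lower (1.82 to 1.99) than Model, and its level was nearer to that of Control. A Ccl5 UMI was found in 33.2%, 61.3% and 41.1% of CD8 T cells, and in 17.3%, 48.1% and 28.0% after thinning to 500 UMIs per cell, where fibroblasts gave 1.78%, 3.52% and 0%. Positive CD8 T cells held on average 38.2, 49.9 and 35.0 Ccl5 UMIs. The class made up 4.07%, 2.69% and 1.74% of kept cells and held 11.0%, 30.6% and 27.0% of Ccl5 UMIs. Ccl4 and Ccl5 were detected together in 10.6%, 24.2% and 14.3% of CD8 T cells.

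**Figure D4:**
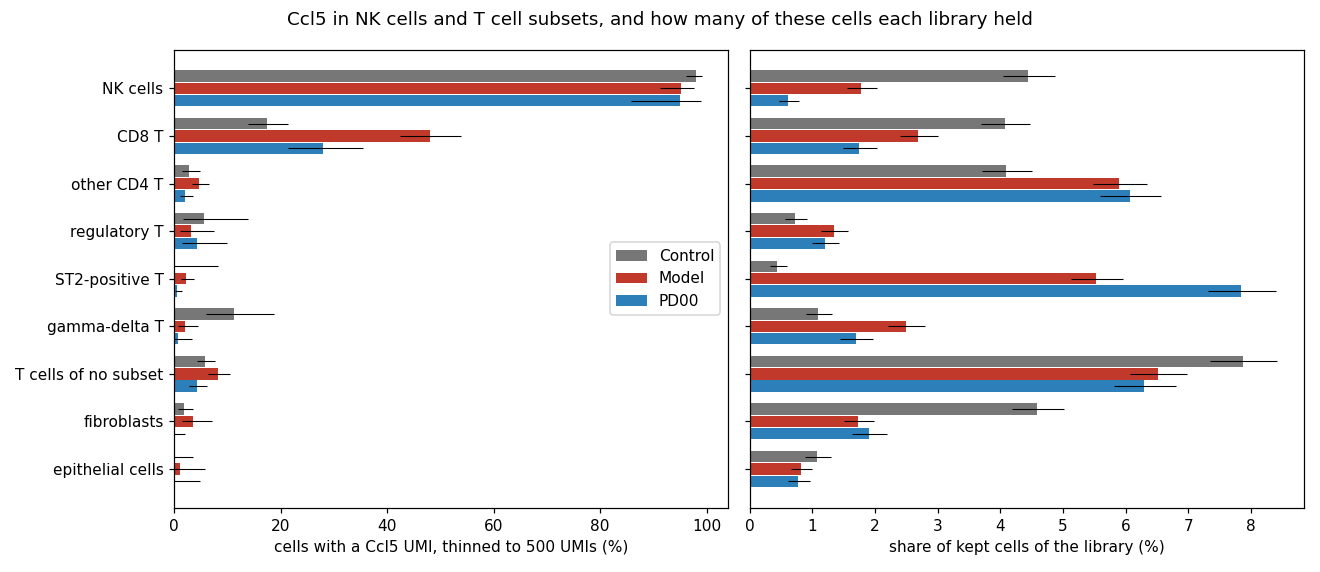
Left, cells with a Ccl5 UMI (%) after thinning each cell to 500 UMIs, in NK cells, T cell subsets and 2 background types. Right, share of kept cells (%) that each class made up; bars are libraries and lines exact Clopper-Pearson 95% intervals. NK cells stay above 94% on the left while their share on the right is 4.44% in Control and 0.612% in PD00.

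Other Ccl5 sources were smaller. T cells assigned to no subset held 2141, 1637 and 722 Ccl5 UMIs, at 672, 528 and 297 CPM. Gamma-delta T cells, innate-like lymphocytes, stood at 1577, 158 and 74.0 CPM, 9.99-fold lower (8.66 to 11.6) in Model, but in Control 43.9% of these UMIs lay in 1 of 107 cells. Migratory dendritic cells, which carry antigen to lymph nodes, stood at 12160.3, 2992 and 1635 CPM over 6, 39 and 35 cells, with 56.3% and 53.2% of the Control and Model UMIs in 1 cell each. CD4 T cells that were neither regulatory nor ST2-positive stood at 177, 267 and 223 CPM, and ST2-positive T cells, which bear the receptor for interleukin-33 as type 2 helper cells do, at 70.1 CPM in Model and 32.2 CPM in PD00. ILC2 stood at 164, 190.3 and 106 CPM. Cells that passed no gate stood at 2719.9, 413 and 211 CPM and held 5.66%, 2.81% and 4.31% of Ccl5 UMIs. Some Ccl5-rich cells thus passed no gate, most of all in Control. Cells that passed several gates held 3191, 4409 and 1001 of 45964, 30977 and 8949 Ccl5 UMIs, at 349, 237 and 61.8 CPM. Fibroblasts, the reference for background, were ordered as the total was, at 53.5, 28.2 and 1.71 CPM. Endothelial cells were not, at 19.5, 36.1 and 3.93 CPM, highest in Model. Alveolar macrophages, at 34.7, 23.9 and 7.56 CPM, were below the fibroblasts in Control and Model, so their Ccl5 is not read as expression.

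For Ccl5 in PD00 against Model, cell numbers and levels were both lower in the main sources. With the mix of cell types again taken as shares of UMIs, holding it at that of Model gave 1.85-fold lower. Holding the levels gave 1.51-fold lower, where 3.40-fold was measured. With equal weight for each gated type of at least 50 cells in both libraries, CD8 T cells counted within T cells, PD00 was 1.22-fold lower. NK cells, at 13010 and 11374 CPM against 892 and 353 CPM in T cells, led that mean of CPM. The median ratio over the 12 measured types was 0.304. In 9 of these, types at background included, Ccl5 was at least 1.5-fold lower, as 2.74% (B cells) to 8.08% (fibroblasts) of all genes were. Cytotoxic effector genes, the granule proteases and regulators of killer lymphocytes, were lower beside Ccl5. Over all cells, 12 of 12 were at least 1.5-fold lower (background 7.43%), with a median log2 ratio of -1.34 against 0.00. In CD8 T cells 8 of 11 were lower (background 8.06%), and in NK cells 0 of 10 (background 5.72%). Gzmb, the granule protease granzyme B, stood at 52.2, 212 and 53.4 CPM in CD8 T cells and 816, 562 and 771 CPM in NK cells. Between Model and Control, 7 of 11 were higher in CD8 T cells (background 20.9%), as Ccl5 was. Prf1 and Eomes of this list also served in the NK cell gate.

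Ccr1 was highest in neutrophils, the short-lived granulocytes that leave the blood toward chemokine. They stood at 1374, 983 and 1125 CPM, and 88.9%, 80.5% and 81.4% of them had a UMI at median depths of only 1968, 2022 and 1927 UMIs. Model was 1.40-fold lower (1.32 to 1.47) than Control, and PD00 1.14-fold higher (1.08 to 1.21) than Model. Next came eosinophils, at 495 and 469 CPM in Model and PD00, and basophils or mast cells at 393, 249 and 638 CPM. The interval of basophils or mast cells overlapped that of classical monocytes in Model and that of eosinophils in PD00. Classical monocytes stood at 257, 254 and 259 CPM, alveolar macrophages at 174, 202 and 159 CPM and interstitial macrophages at 207, 199 and 193 CPM, a range in which the libraries differed little. NK cells, at 7.48, 9.07 and 14.0 CPM, and type 1 dendritic cells, at 4.16, 8.25 and 6.42 CPM, had intervals that overlapped those of fibroblasts, at 11.4, 18.1 and 6.26 CPM, and are not read as carrying Ccr1. CD8 T cells, at 12.4, 7.57 and 18.9 CPM, were in the same range, while ST2-positive T cells stood at 32.9 and 34.3 CPM in Model and PD00.

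The share of Ccr1 that each cell type held differed between libraries. Alveolar macrophages held 61.1%, 16.5% and 28.1% of Ccr1 UMIs, interstitial macrophages 1.83%, 17.3% and 12.4%, and neutrophils 23.0%, 21.8% and 18.9%. Across the measured types, Ccr1 was at least 1.5-fold higher in Model in 3 of 8. The types were B cells, endothelial cells and fibroblasts, in which 13%, 5.79% and 9.18% of all genes were that much higher. Fibroblasts are the reference for background, with a ratio of 1.58 (0.987 to 2.52), and endothelial cells, at 6.22, 15.7 and 14.5 CPM, were no higher than fibroblasts in Control and Model. B cells stood at 14.7, 51.9 and 47.5 CPM, 3.52-fold higher (2.55 to 4.95) in Model, or 1.93-fold higher when cells passing several gates were assigned to 1. Fibroblasts of Model, at 18.1 CPM, and plasma cells, at 17.5 CPM, were below the B cells. Between PD00 and Model, Ccr1 passed 1.5-fold in 0 of 9 types. Few genes of any kind passed it there. The shares were 2.06% (interstitial macrophages) to 6.24% (neutrophils) higher and 2.74% (B cells) to 5.51% (eosinophils) lower.

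**Figure D5:**
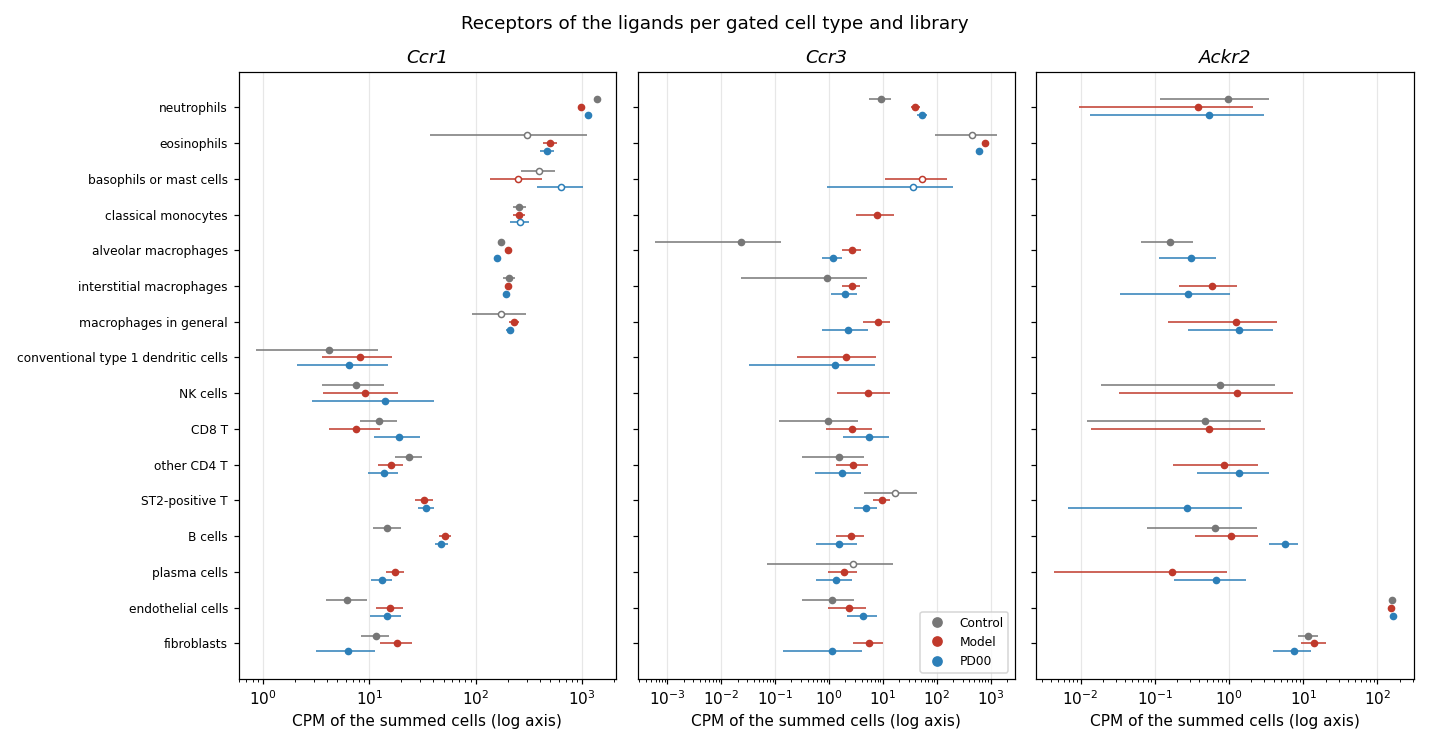
Level of Ccr1, Ccr3 and Ackr2 in CPM (log axis) per gated cell type, with exact Poisson 95% intervals and colours as for the ligands; open points are sums of under 50 cells. Ccr1 is near the same level in each library in monocytes and macrophages, Ccr3 is highest in eosinophils and Ackr2 in endothelial cells, at 151 CPM in Model.

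The other receptors described were restricted in range. Ccr3 totalled 73, 1028 and 843 UMIs. Eosinophils stood at 791 and 619.9 CPM of it in Model and PD00, and neutrophils at 9.11, 39.9 and 53.2 CPM. Cells that passed no gate held 34.2%, 35.0% and 43.4% of Ccr3 UMIs, so the eosinophil gate did not take in all Ccr3-positive cells. Ackr2, a decoy receptor that removes inflammatory C-C chemokines, lay mainly in endothelial cells, which held 63.1%, 73.2% and 75.2% of its UMIs and stood at 156, 151 and 163 CPM. Ccr1l1, a paralog of Ccr1, had 0, 0 and 1 UMIs.

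Of the other ligands of Ccr1, Ccl9 and Ccl6 were higher in Model than in Control in the macrophages, and Ccl7 was lower there. The rises were not confined to macrophages. In the background reference, Ccl9 was 9.85-fold higher (7.19 to 13.8) in fibroblasts and 30.4-fold higher (15.7 to 67.3) in epithelial cells. Ccl6 was 2.32-fold higher (2.09 to 2.57) in fibroblasts. Ccl9, made constitutively by macrophages, stood at 186, 823 and 865 CPM over all cells, and at 281, 1544 and 1346 CPM in alveolar macrophages, 5.49-fold higher (5.36 to 5.62) in Model. Ccl6, its neighbour, stood at 4125, 6974 and 6003 CPM in alveolar and 444, 3562 and 3155 CPM in interstitial macrophages. Ccl7, a monocyte chemoattractant, stood at 1407, 129 and 56.1 CPM in interstitial macrophages, 10.9-fold lower (10.2 to 11.8) in Model and 2.29-fold lower (2.05 to 2.57) in PD00 than in Model. Fibroblasts also carried Ccl7, at 159, 268 and 192 CPM. Among 8 signalling partners of the receptors, 5 were at least 1.5-fold lower in Model in alveolar macrophages, where 26.6% of all genes were, 3 in interstitial macrophages (background 18.4%) and 0 in neutrophils (background 7.2%). Gnai2, the inhibitory G protein subunit used by chemokine receptors, stood at 890.2, 525 and 559 CPM in alveolar macrophages and 950.3, 889.8 and 915 CPM in neutrophils.

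Over the 44 sums of a library and a gated class with at least 50 cells, the genes most like each member were found by Pearson's r of log2(CPM + 1) among 11175 genes. These sums share libraries, depth and free RNA, and r is a description only. Ccl3 was nearest to Tyrobp (0.89), Ccl4 (0.88), Fcer1g (0.87), Plek (0.84), Ostf1 (0.83). Ccl4 was nearest to Ccl3 (0.88), Tyrobp (0.84), Myo1f (0.83), Atp8b4 (0.83), Apobr (0.83), and Ccl3 and Ccl4 were thus among each other's nearest. Ccl5 was nearest to Nkg7 (0.95), Gzma (0.94), Eomes (0.93), Txk (0.92), Fasl (0.91), of which Eomes and Txk also served in the NK cell gate. Ccr1 was nearest to Slc7a11 (0.92), Cd33 (0.90), Neu1 (0.90), Il1rn (0.89). Ccl5 and Ccr1 had an r of -0.02, and Ccl3 and Ccr1 one of 0.55.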

How the data were processed

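Single-cell RNA was measured in 3 libraries, 1 per treatment label. The authors deposited matrices of UMI counts per gene and barcode, as whole numbers and without scaling. The submitters' processing notes name Cell Ranger 3.1.0, STAR and the genome mm10, whereas cellranger 5.0.0 wrote the matrices per the file headers. The annotation version is not given in the sources used here. Only barcodes called as cells are listed, so free RNA was not subtracted.

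Kept cells had a minimum of 500 UMIs and of 200 genes, and no more than 20% of UMIs from mitochondrial genes. This removed 281, 79 and 24 barcodes for genes and 76, 187 and 192 for mitochondrial UMIs. A cell took the type with the largest share of its markers detected, with at least 3. If a second type passed at 75% of that share or more, the cell was set apart as passing several gates, and no doublet caller was run. Eosinophils needed 2 markers and no other gate, a rule set after the data were seen. A T cell gate or any CD3 UMI excluded the ILC2 gate, and a specific macrophage gate the general one. T cells were split by Cd8a or Cd8b1, Cd4, Foxp3, Il1rl1 and the gamma-delta receptor gene Trdc.

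UMIs were summed per library and class and scaled to CPM. Levels have exact Poisson, shares exact Clopper-Pearson and ratios exact conditional-binomial 95% intervals. PCR reads were collapsed by UMI, but UMIs of 1 cell are not independent, so the intervals are too narrow wherever few cells hold them. Ratios needed 50 cells in each sum and 50 UMIs over both. A floor of 3 UMIs stood for a count of 0, and 1.5-fold was the call. No test was possible with 1 library per group. The computation of ratios and intervals was checked on simulated counts.

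The members, the marker lists and the gene lists were chosen with earlier results of these data known. Named genes were the members, 6 other receptors and ligands of the pathway, and up to 4 genes of each list with the most UMIs in the class. The 5 genes of most like pattern had at least 500 UMIs. Some genes that this rule names are not reported here. Gene positions and promoter windows are from GENCODE and RefSeq on GRCm38. Alternatives were a 10% mitochondrial limit, 500 genes, 2 or 4 markers, cells of several gates assigned to the type with the largest share, cells above 3 times the median UMIs of their class left out, thinning to 500 UMIs, median-of-ratios scaling, totals without mitochondrial, ribosomal protein and haemoglobin genes, and equal weight per type. Equal weight was the plain mean of CPM over gated types with at least 50 cells in both libraries, so the types of highest CPM led it. Chosen after seeing the data were a fixed mix of types, gated cells only, 3 eosinophil markers and 6 interstitial macrophage markers. Python 3.11.15, numpy 2.4.6, scipy 1.17.1, pandas 2.3.3 and matplotlib 3.10.9 were used.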

Additional observations from a re-analysis of the deposited data

Results flagged for a closer look

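In 4 cases a member went opposite ways in 2 cell types under the same comparison, both by at least 1.5-fold with counting intervals off 1. None of these differences between cell types was tested, since each group had 1 library.

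Ccl3 in PD00 over Model had a ratio of 1.62 (1.17 to 2.23) in nonclassical monocytes, where 1 PD00 cell held 22.2% of the UMIs. In T cells the ratio was 0.487 (0.386 to 0.609), at levels of 19.8 and 9.63 CPM in Model and PD00. Endothelial cells stood at 15.1 and 12.6 CPM and fibroblasts at 8.55 and 5.69 CPM, so the T cell level was near background. Ccl4 in the same comparison had a ratio of 1.71 (1.36 to 2.15) in nonclassical monocytes, where 1 PD00 cell held 34.5% of the UMIs, and 0.410 (0.244 to 0.667) in B cells, where 1 Model cell held 26.9%. The 95% intervals of the Ccl4 level of B cells and of fibroblasts, the reference for background, overlapped in Model and in PD00.

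Ccl5 in Model over Control had a ratio of 19.8 (6.58 to 97.8) in nonclassical monocytes and 0.232 (0.188 to 0.284) in neutrophils. In PD00 over Model it was 0.0332 (0.00396 to 0.123) in nonclassical monocytes and 1.66 (1.30 to 2.13) in neutrophils. Both Ccl5 values rest on few cells: nonclassical monocytes held 3, 95 and 2 UMIs, with 49.5% of those of Model in 1 cell. In neutrophils 1 cell held 23.8%, 37.9% and 44.5% of the Ccl5 UMIs of each library.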

How the results depend on the processing

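No paired analysis was possible because each group had 1 library. Of 390 values recomputed for 49 ratios, 271 stayed inside the counting interval, 112 moved out of it and 7 changed side of 1. Over all kept cells, Ccl3, Ccl4 and Ccl5 stayed below 1 under every alternative for Model over Control and PD00 over Control. Ratios are given as Model over Control, PD00 over Model and PD00 over Control. Thinned to 500 UMIs they were Ccl3 0.441, 0.953 and 0.420, Ccl4 0.411, 0.869 and 0.357, Ccl5 0.421, 0.363 and 0.153, and Ccr1 0.988 for PD00 over Model. With the mix of cell types fixed they were Ccl3 0.229, 0.905 and 0.187, Ccl4 0.375, 0.918 and 0.334, Ccl5 0.645, 0.539 and 0.430 and Ccr1 1.09, 0.982 and 0.961. With equal weight per type they were Ccl3 0.247, 0.987 and 0.251, Ccl4 0.323, 1.11 and 0.339, Ccl5 0.640, 0.820 and 0.526, and Ccr1 0.868 and 1.02 for the first 2. Ratios against Control (Model, then PD00) were Ccl3 0.200 and 0.164, Ccl4 0.436 and 0.301, Ccl5 0.752 and 0.221 and Ccr1 1.06 and 1.01 under median-of-ratios scaling. In gated cells they were Ccl3 0.167 and 0.139, Ccl4 0.383 and 0.267, Ccl5 0.770 and 0.222 and Ccr1 0.879 and 0.837. The 10% mitochondrial limit gave Ccl4 0.410 and 0.287, Ccl5 0.742 and 0.217, and Ccr1 0.941 for Model, and 500 genes gave Ccl3 0.176 and 0.143. Ccr1 in each comparison and Ccl4 in PD00 over Model thus crossed 1, and the cause was not tested. Per cell type, 2 ratios crossed 1: Ccl4 in macrophages in general of PD00 over Model at 0.574 with 2 markers and Ccl4 in type 1 dendritic cells of Model over Control at 1.10 with cells of several gates assigned. Types under 50 cells gave no ratio, and with 4 markers NK cells of PD00 fell under that minimum.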

Other observations

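Ligand and receptor often lay in the same cell. Ccl3 and Ccr1 were detected together in 64.7%, 36.6% and 31.7% of alveolar macrophages and 44.1%, 22.7% and 22.3% of neutrophils in Control, Model and PD00. Among Ccl3-positive neutrophils, 90.1%, 82.4% and 79.4% had a Ccr1 UMI, and among the others 87.8%, 79.7% and 82.2%, so the receptor was detected about as often with the ligand as without it. In Ccl3-positive interstitial macrophages, Ccr1 was detected in 48.8%, 73.8% and 61.4%, and in 16.7%, 61.3% and 60.0% of the others. Deeper cells show more of every gene, so these shares also follow depth.

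Cells that passed several gates held 9.61%, 27.8% and 25.4% of Ccr1 UMIs and 10.2%, 23.6% and 17.5% of Ccl3 UMIs, and made up 6.19%, 12.5% and 9.32% of kept cells. Cells that passed no gate stood at 2719.9, 413 and 211 CPM of Ccl5 and 37.6, 153 and 151 CPM of Ccr1.

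Ccl5 came from few cells. The cells that together held 50% of a library's Ccl5 UMIs numbered 178, 138 and 53, against 947, 711 and 706 for Ccr1.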
